A study of Homo sapiens with 6 samples.

Results

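The insulin-like growth factor (IGF) binding proteins, the ligand IGF2 and the receptors IGF1R and INSR were examined in Caki-1 cells with and without the tumor suppressor VHL. The 10 genes, IGFBP1 to IGFBP7, IGF2, IGF1R and INSR, were chosen by name from the 60708 genes in the deposited count table, and 6 of the 10 had enough reads to be tested. VHL is WT in unedited Caki-1, a human line of clear cell kidney carcinoma. VC cells (genotype WT, n = 3) had been infected with a lentiviral CRISPR vector that carried no guide. VHL-KO cells (genotype VHL-knockout, n = 3) had received the same kind of vector with a guide RNA against VHL, and clones were picked after puromycin selection and screened by immunoblot. Differences between a clone and the infected population cannot be told apart from loss of VHL in this design, and the number of clones behind the 3 VHL-KO samples is not given in the sources used here. The labels do not say whether the replicates were separate cultures, so p-values measure the spread between these samples, which may be technical. The depth ranged from 28463579 to 34881739 counts in the VC and from 22628246 to 29139722 counts in the VHL-KO samples.

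IGF1 and IGF2 are secreted growth factors that act through IGF1R and through the insulin receptor INSR, both receptor tyrosine kinases that signal by way of IRS adaptors to PI3K and AKT. IGFBP1 to IGFBP6 bind the IGFs with high affinity outside the cell, where they carry them, extend their life in the circulation and keep them from the receptors until a protease cuts the binding protein. IGFBP7 is a related secreted protein that binds IGFs weakly. In the kidney and elsewhere, VHL marks the HIFα transcription factors for destruction, and IGFBP1 and IGFBP3 have been described as genes induced by low oxygen.

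The targeted gene and the identity of the cells were examined first. VHL, the recognition subunit of a ubiquitin ligase, had 42.6, 37.8 and 40.1 CPM (read counts scaled by sequencing depth with edgeR's TMM factors) in VC replicates 1 to 3 and 34.8, 30.4 and 30.5 CPM in VHL-KO replicates 1 to 3. VHL mRNA was lower in VHL-KO cells, with a log2 fold change of -0.33 and a standard error of 0.11 (edgeR quasi-likelihood test, Benjamini-Hochberg adjusted p = 0.0109) and no overlap between the groups. The call was lost when VC replicate 1 (edgeR adjusted p = 0.0862) or VHL-KO replicate 2 (0.0621) was left out, with upper quartile factors (0.0905) and with offsets for GC content and length (0.152, log2 fold change -0.14), in a range from 2.9e-04 to 0.152 over 14 alternatives. Reads on VHL that come from an unnamed gene on the opposite strand, which overlaps 23.5% of its exonic bases, could not be separated. An edit that shifts the reading frame need not lower the mRNA, and the level of the mRNA does not show whether protein was made. Of 8 HIF target genes, 7 were higher in VHL-KO cells, beside 28.5% of all tested genes, and 1, EGLN3, was lower (log2 fold change -1.26; this gene was singled out after its value was seen). CA9, counted among the 7, had enough reads to be tested only through the VHL-KO samples. CA9, a carbonic anhydrase, had 0, 0 and 2 counts in the VC samples, against 288, 247 and 233 in the VHL-KO samples, a ratio of 562 (95% counting interval 155 to 4646, which covers counting error only). This ratio rests on the 2 counts of VC replicate 3. Without that sample the log2 fold change of CA9 moved from 8.85 to 11.2. VEGFA, the angiogenic growth factor, and NDRG1, a stress-response gene, had log2 fold changes of 2.48 and 6.03.

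Markers of renal epithelium differed widely in level. Their 8 genes summed to between 1511 and 1887 CPM in VC and between 2268 and 2345 CPM in VHL-KO samples, a sum carried by KRT8, the most abundant, PAX8 and KRT18, while PAX2 was at 0 in all 6. LHX1 and EPCAM went against the sum, LHX1 with 52.4 to 57.6 CPM in VC and 15.9 to 18.6 CPM in VHL-KO samples and EPCAM with 1.04 to 1.64 CPM and 0.188 to 0.648 CPM. Of 5 leukocyte markers, CD3E had 0 counts and PTPRC at most 1 in any sample, and the sum was 1.37 to 1.78 CPM in VC and 3.89 to 5.33 CPM in VHL-KO samples, nearly all from CD14. The 4 endothelial markers summed to 0.168 to 0.237 CPM in VC and 0.324 to 0.524 CPM in VHL-KO samples, with TEK at 0. In VHL-KO samples the sum was all PECAM1. KDR and CDH5 went against the sum, with 4, 0 and 9 and with 1, 0 and 0 counts in VC and 0 in each VHL-KO sample. The 4 fibroblast markers summed to 29.4 to 36.5 CPM in VC and 22.9 to 27.9 CPM in VHL-KO samples, mostly COL1A1, with LUM at 0. In bulk samples fewer cells of a type and less RNA per cell cannot be told apart, and the part of the small sums in the results that follow was not tested.

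IGFBP3, IGFBP6 and IGFBP7 rose in VHL-KO cells, IGFBP4 fell, and neither receptor passed the test. Of the 10 members 3 were higher, 1 was lower and 2 were not called, and IGFBP1, IGFBP2, IGFBP5 and IGF2 had too few reads to test. The threshold was an adjusted p of 0.05 from edgeR over the 17401 genes that reached 10 reads in some sample. All 6 members that met this minimum had over 10 reads in every sample of both groups. In the same comparison 59.7% of all tested genes were called, 28.5% as higher and 31.2% as lower in VHL-KO cells, so a call on its own did not set a member apart. The median log2 fold change of the 6 tested members was 0.73, beside -0.01 for all tested genes. It lay in the gap between INSR (0.15) and IGFBP6 (1.31), so it describes no single member. Over the alternatives it ranged from 0.25 (filter of 1 count in any sample, with 8 members tested) to 0.85 (without VC replicate 2). With library size alone in place of TMM factors the median of all genes shifted by -0.19, and with upper quartile factors by 0.11. The share of calls that were higher moved from 47.7% with TMM factors to 35.8% with library size alone and to 55.0% with upper quartile factors, and the 4 calls among the members kept their direction under each.

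**Figure D1:**
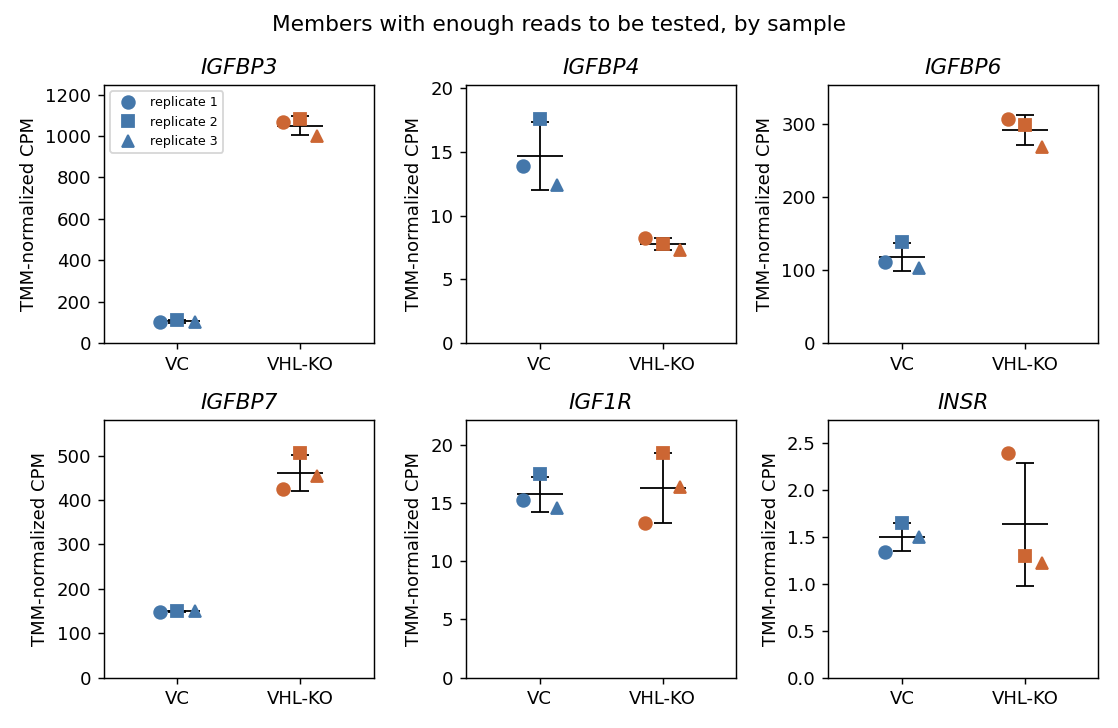
TMM-normalized CPM of the 6 tested members in each sample, on linear axes that start at 0. Symbols are replicates 1 to 3 of VC (blue) and VHL-KO (orange), the long bar is the mean and the whiskers are 1 SD (n = 3). The groups do not overlap for IGFBP3, IGFBP4, IGFBP6 and IGFBP7, and they overlap for IGF1R and INSR.

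IGFBP3 showed the largest change of the members. This gene encodes the main carrier of IGFs in serum, where it forms a complex with an IGF and the acid-labile subunit. It lies at chr7:45912245-45921874 on the minus strand (GENCODE release 44, GRCh38), and no other annotated gene overlaps its exons. In VC replicates 1 to 3 IGFBP3 had 3385, 3332 and 3916 counts, against 28517, 23414 and 21296 in the same order of VHL-KO replicates. In CPM the VC samples held 99.1, 112 and 103 and the VHL-KO samples held 1067, 1085 and 998. Every VHL-KO sample lay far above every VC sample, and the replicates of each group were close to each other. The mean rose from 105 ± 6.66 CPM to 1050 ± 45.6 CPM (SD, n = 3 each), which was 10.0-fold. The log2 fold change was 3.33 (standard error 0.09, edgeR adjusted p = 5.4e-19), and it ranked 231 among the 17401 tested genes when these were ordered from the largest rise to the largest fall. Over the 14 alternatives it ranged from 3.13 to 3.44 and was called in all 14.

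The bases before the transcription starts of IGFBP3, IGFBP6 and IGF1R are shown because these members combine different responses with different numbers of motif matches, so the contrast between them comes from the choice. The motif was the core of the hypoxia response element, ACGTG or GCGTG, searched on both strands in the 250 bases before each RefSeq start (GRCh38.p14); a match on the minus strand reads as CACGT or CACGC. The table held 7 of the 10 members, not IGFBP1, IGFBP7 and IGF2. IGFBP3 (chr7:45921273-45921522, minus strand) held 3 cores, at -209, -167 and -55 bases from the start. IGFBP6 (chr12:53097417-53097666, plus strand) held 0 cores. IGF1R (chr15:98648289-98648538, plus strand) held 5 cores. Capitals mark the cores, and each sequence runs 5′ to 3′ on the strand of the gene.
IGFBP3: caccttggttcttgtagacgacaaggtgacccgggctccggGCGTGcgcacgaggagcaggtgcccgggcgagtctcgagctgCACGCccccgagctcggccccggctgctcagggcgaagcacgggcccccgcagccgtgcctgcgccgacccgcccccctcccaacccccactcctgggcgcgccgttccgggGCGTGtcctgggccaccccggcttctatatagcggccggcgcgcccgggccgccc
IGFBP6: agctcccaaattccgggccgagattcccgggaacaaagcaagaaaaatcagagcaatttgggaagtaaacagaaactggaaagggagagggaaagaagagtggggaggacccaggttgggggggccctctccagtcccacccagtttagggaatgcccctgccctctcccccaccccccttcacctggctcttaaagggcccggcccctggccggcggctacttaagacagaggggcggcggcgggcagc
IGF1R: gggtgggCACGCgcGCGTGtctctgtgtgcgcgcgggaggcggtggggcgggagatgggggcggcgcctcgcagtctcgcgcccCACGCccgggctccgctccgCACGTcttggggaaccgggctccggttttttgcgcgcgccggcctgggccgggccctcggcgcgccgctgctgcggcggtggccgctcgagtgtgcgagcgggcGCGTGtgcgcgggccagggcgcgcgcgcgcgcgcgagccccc
Of all 35116 windows of this length in the table, 43.2% held at least 1 core, and 7.76% held 3 or more. A core was found for 3 of the 7 members, IGFBP3, IGF1R and IGFBP2 (in 1 of its 3 windows), and none was found for IGFBP4, IGFBP5, IGFBP6 and INSR. In windows with a core the share of G and C was 76.0% for IGFBP3, 81.2% for IGF1R and 69.2% for IGFBP2, and in windows with no core it was 56.8% and 56.4% for IGFBP2, 61.2% for IGFBP5 and IGFBP6, 71.6% for IGFBP4 and 78.4% for INSR. These matches describe letters in the reference and do not show that a factor binds there. The GENCODE gene starts of IGFBP3 and IGFBP6 lie upstream of the RefSeq starts, so these windows lie wholly or partly inside the GENCODE genes.

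IGFBP7 and IGFBP6 rose as well, by smaller factors. IGFBP7, which binds IGFs weakly and is deposited in the matrix around cells, lies at chr4:57030773-57110385 on the minus strand. Its level was 147, 150.4 and 150.1 CPM in VC and 425, 505 and 453 CPM in VHL-KO samples. The VC samples were nearly equal, and all VHL-KO samples lay above them. The mean rose 3.09-fold, from 149 ± 1.68 to 461 ± 40.7 CPM (SD, n = 3 each), with a log2 fold change of 1.63 (standard error 0.09, edgeR adjusted p = 1.9e-13). On the opposite strand, IGFBP7-AS1 and POLR2B overlap 18.3% of the exonic bases of IGFBP7. Whether the counting used strand is not given in the sources used here, so reads from these genes could not be separated. IGFBP7-AS1 itself had 1.52 ± 0.0814 CPM in VC and 5.98 ± 1.56 CPM in VHL-KO cells, and POLR2B was lower in VHL-KO cells (73.4 ± 12.6 and 42.4 ± 4.22 CPM).

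IGFBP6, the binding protein that prefers IGF2 over IGF1, lies at chr12:53097436-53102345 on the plus strand. It reached 111, 139 and 103 CPM in VC and 308, 299 and 269 CPM in VHL-KO samples. VC replicate 2 was the highest of the controls, yet it stayed below the lowest VHL-KO sample. The mean rose 2.48-fold, from 118 ± 18.8 to 292 ± 20.5 CPM (SD, n = 3 each), with a log2 fold change of 1.31 (standard error 0.10, edgeR adjusted p = 1.1e-10). With offsets that remove each library's trend with GC content and transcript length, the log2 fold change was 0.59 (edgeR adjusted p = 5.5e-08, also the highest of 14 alternatives, whose lowest was 2.3e-41). The longest transcript of IGFBP6 is 64.1% G and C, the highest share of the 10 members, followed by IGFBP4 at 62.6%.

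IGFBP4 was the only member to pass the test in the other direction. Its protein holds IGFs away from the receptors and is cut by the protease PAPP-A, which frees the ligand. The gene lies at chr17:40443450-40457725 on the plus strand. IGFBP4 had 476, 524 and 472 counts in the VC samples, against 221, 168 and 156 in the VHL-KO samples. In CPM the controls held 13.9, 17.6 and 12.4 and the VHL-KO samples 8.27, 7.78 and 7.31. All 3 VHL-KO samples were below all 3 VC samples, and VC replicate 2 stood above the other controls. The mean was 1.88-fold lower, at 14.7 ± 2.68 CPM in VC and 7.79 ± 0.478 CPM in VHL-KO cells (SD, n = 3 each), with a log2 fold change of -0.91 (standard error 0.16, edgeR adjusted p = 2.3e-05). The value was -1.40 with offsets for GC content and length and -0.74 without VC replicate 2, the extremes of 14 alternatives that all called it.

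**Figure D2:**
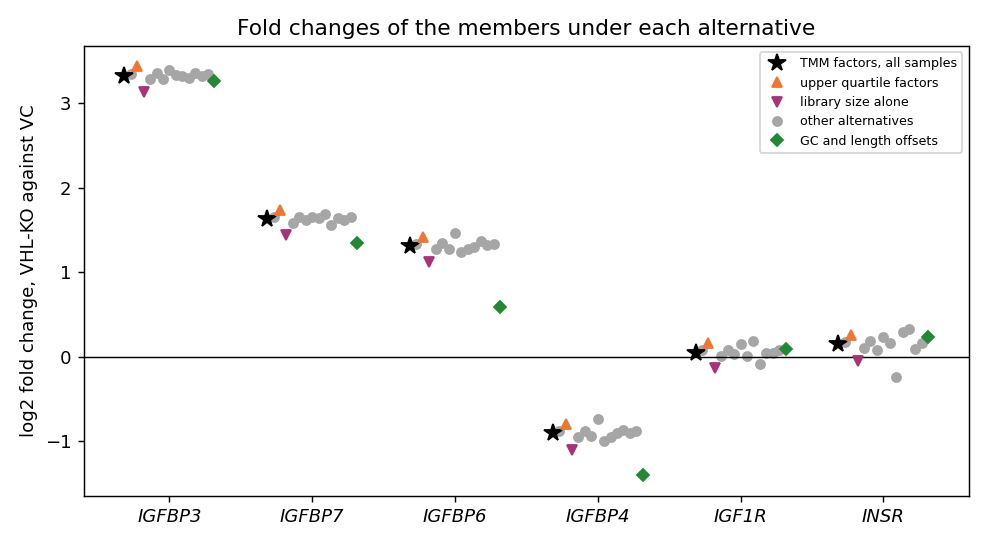
Log2 fold change of the 6 tested members, VHL-KO against VC, in the edgeR test with TMM factors and all samples (star) and under each of 14 alternatives. IGFBP3, IGFBP7 and IGFBP6 stay above 0 and IGFBP4 below 0 in each, while IGF1R and INSR fall on both sides of 0. The offsets for GC content and length (green) move IGFBP6 to 0.59 and IGFBP4 to -1.40.

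The other binding proteins were at or near 0. IGFBP1, a secreted protein of the liver that insulin regulates, had 1, 0 and 1 counts in the VC samples, against 2, 0 and 0 in the VHL-KO samples. IGFBP2 and IGFBP5, which both bind to matrix and the cell surface as well as to IGFs, had 0 counts in all 6 samples. A count of 0 allows up to 3 counts, or 0.0790 CPM in the deepest and 0.141 CPM in the shallowest sample, so any level below this was not detectable at this depth. These genes sit in pairs on the chromosome. IGFBP1 and IGFBP3 lie on chromosome 7 on opposite strands, 18584 bases apart, and IGFBP2 and IGFBP5 lie on chromosome 2 on opposite strands, 7668 bases apart. Within the first pair IGFBP3 had at least 3332 counts in each sample and IGFBP1 at most 2, and within the second pair neither gene had a read.

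The ligand was not detected above this limit either. IGF2, an imprinted growth factor of fetal tissue, had 3, 0 and 0 counts in VC and 0 counts in each VHL-KO sample. Other annotated genes overlap 44.4% of its exonic bases, 43.2% on the same strand, and reads shared with such a gene may have been left uncounted, so its low count is uncertain. IGF1, the other IGF ligand, had 0 counts in all 6 samples, with 82.5% of its exonic bases overlapped by HELLPAR on the opposite strand. Insulin (INS) and the readthrough gene INS-IGF2 also had 0 counts in all 6. Other genes on the same strand overlap 37.5% of the exonic bases of INS and 93.4% of those of INS-IGF2, so these counts are uncertain too.

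Neither receptor was called. IGF1R, the main receptor for both IGFs, lies at chr15:98648539-98964530 on the plus strand. It reached 15.2, 17.5 and 14.5 CPM in VC and 13.2, 19.3 and 16.4 CPM in VHL-KO samples. VHL-KO samples included both the lowest and the highest value, so the groups overlapped on the CPM scale. The means were 15.7 ± 1.53 and 16.3 ± 3.01 CPM (SD, n = 3 each), with a log2 fold change of 0.05 (standard error 0.14, edgeR adjusted p = 0.783). This value turned to -0.14 with library size alone and to -0.085 without VHL-KO replicate 2.

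INSR, the insulin receptor, which also binds IGF2, lies at chr19:7112255-7294414 on the minus strand. INSR had 46, 49 and 57 counts in the VC samples, against 64, 28 and 26 in the VHL-KO samples, or 1.35, 1.65 and 1.501 CPM and 2.39, 1.30 and 1.22 CPM. VHL-KO replicate 1 was the highest of all 6 samples and the other two VHL-KO samples were the lowest. The log2 fold change was 0.15 (standard error 0.30, edgeR adjusted p = 0.687), and it turned to -0.24 without VHL-KO replicate 1 and to -0.049 with library size alone. The standard error of INSR was the largest of the 6 tested members.

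Levels of different members were compared per length, as counts divided by the length of the union of exons and scaled to the same total in each sample (the TPM scale). In VC cells IGFBP6 (298 ± 44.3) and IGFBP7 (264 ± 5.94) were the most abundant on this scale and their samples overlapped. IGFBP3 (78.4 ± 4.73), IGFBP4 (22.7 ± 3.88), IGF1R (3.86 ± 0.332) and INSR (0.473 ± 0.0473) followed, each below the one before it in all 3 samples. In VHL-KO cells the ranges of IGFBP7 (609 ± 72.1), IGFBP3 (585 ± 26.2) and IGFBP6 (551 ± 26.04) overlapped. Within each VHL-KO sample IGFBP3 stood above IGFBP6 (567 and 555, 615 and 575, 573 and 523 in replicates 1 to 3), and it was above IGFBP7 in replicate 1 and below it in the others. In every VC sample IGFBP3 was below both. IGFBP4 (8.98 ± 0.246), IGF1R (2.99 ± 0.643) and INSR (0.381 ± 0.135) again followed in this order with no overlap. The VHL-KO means of IGF1R and INSR were below the VC means on this scale and above them in TMM-normalized CPM, so the direction of both depended on the scale. The samples of IGF1R did not overlap with this length (2.31, 3.58 and 3.09 in VHL-KO, 3.70, 4.24 and 3.63 in VC) and did with the longest transcript (3.07 in VHL-KO replicate 2, 3.06 in VC replicate 3). With the longest transcript as the length, IGFBP3 stood at 766 ± 31.6 in VHL-KO cells, above IGFBP7 in every sample, with IGFBP7 at 622 ± 71.1 and IGFBP6 at 475 ± 21.8, so the order of these genes depended on the length used.

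The makeup of the binding protein transcripts shifted toward IGFBP3. Of the summed per-length level of the 7 IGFBP genes, IGFBP3 made up 11.6%, 11.5% and 12.4% in the controls and 34.04%, 32.8% and 33.3% in the VHL-KO samples. The share of IGFBP3 in every VHL-KO sample exceeded that in every VC sample, by 21.5 points on average (exact permutation test, two-sided, p = 0.1, which is the lowest value possible with 3 samples in each group). IGFBP3 had already been seen to rise more than the other binding proteins, so a higher share was fixed in advance. The test is therefore no support. The share of IGFBP6 went from 44.8 ± 3.22% to 31.5 ± 1.61%, and that of IGFBP7 from 39.99 ± 3.16% to 34.7 ± 2.23% (SD, n = 3 each). The share of IGFBP4 went from 3.41 ± 0.329% to 0.513 ± 0.0305%. IGFBP6 and IGFBP7 therefore took smaller shares although their own levels had risen. The summed level was 664 ± 50.9 in VC and 1755 ± 110 in VHL-KO cells on the per-length scale, 2.64-fold higher. With the longest transcript as the length the sum was 2.96-fold higher, and the mean share of IGFBP3 went from 15.9% to 41.0%. This scale uses no TMM factors, so its folds are not comparable with those in CPM.

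**Figure D3:**
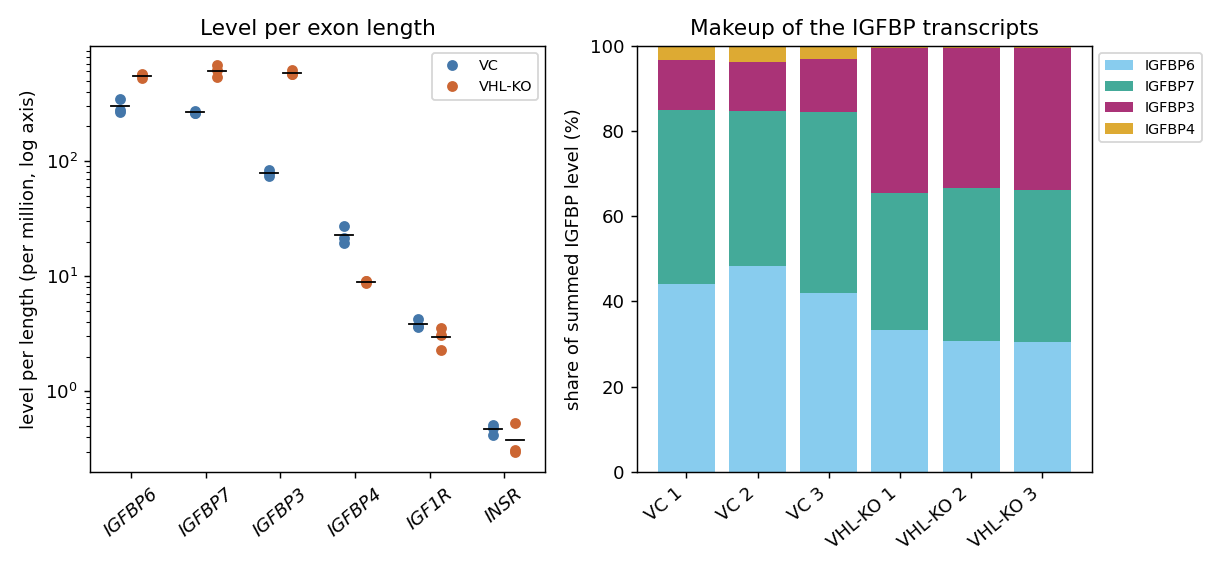
Left, level per exon length of the 6 tested members (TPM scale, log axis), with 1 point per sample and a bar at the mean of VC (blue) and VHL-KO (orange). Right, share in percent of each IGFBP gene in the summed per-length level of the 7 IGFBP genes in each sample. The share of IGFBP3 is between 11.5% and 12.4% in VC and between 32.8% and 34.04% in VHL-KO samples.

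The genes whose pattern over the 6 samples was closest to that of a member were found by the root mean square difference of centred log2 CPM, searched over 10902 genes that averaged 100 counts or more. For IGFBP3 these were ANGPTL4 (difference 0.0862), S100A1 (0.0889) and CDH16 (0.0952), whose log2 fold changes were 3.40, 3.25 and 3.42. For IGFBP4 they were UBE2S (0.0595), BDH1 (0.0739) and EEF2KMT (0.0840), whose log2 fold changes were -0.99, -0.89 and -0.83. The measure includes the difference between the groups as well as the spread within them.

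Other genes of the IGF axis are described by role, and no count over the axis or over the PI3K-AKT branch is used as a result.

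**Figure D4:**
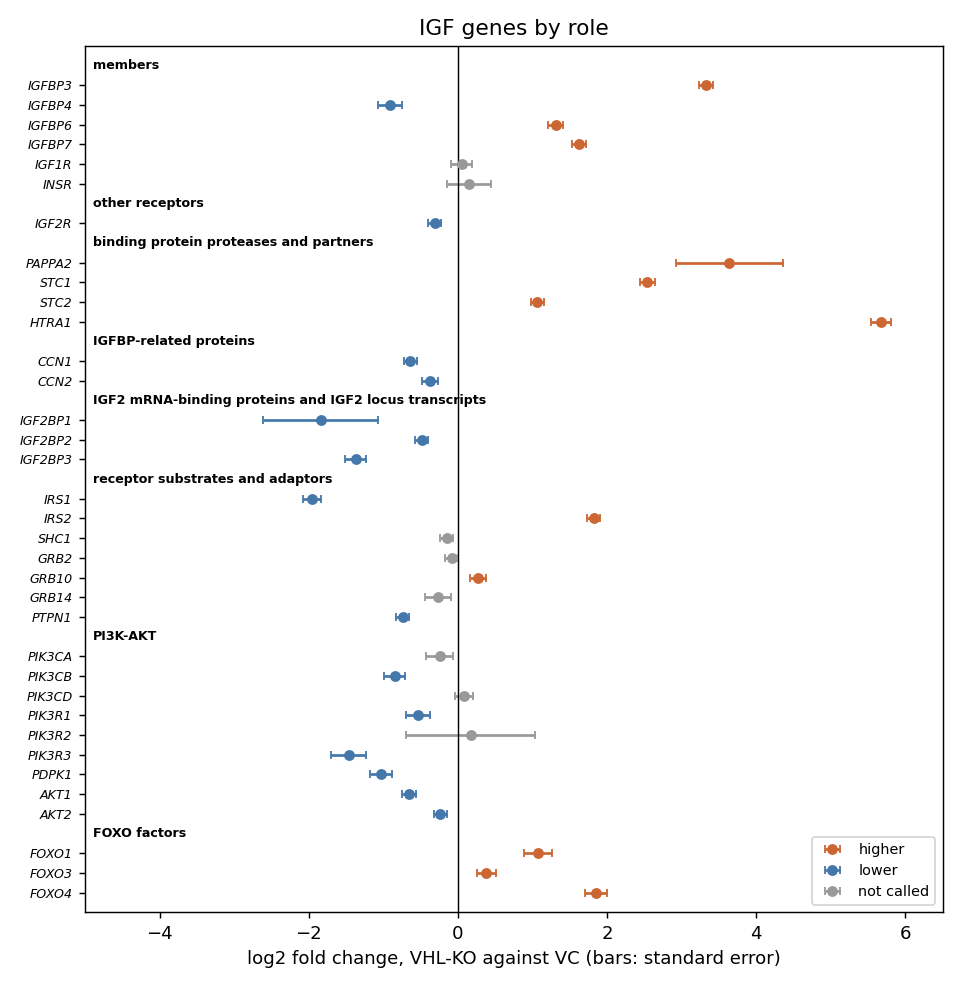
Log2 fold change, VHL-KO against VC, of the tested members and of tested genes of the IGF axis lists by role, with bars of 1 standard error. Orange marks genes higher and blue genes lower at an edgeR adjusted p of 0.05, and grey marks genes not called. HTRA1 has the largest rise (5.68) and IRS1 the largest fall (-1.95).

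Of 6 listed proteases and partners of the binding proteins, HTRA1, STC1 and STC2 had enough reads in both groups and were higher, in a comparison that called 28.5% of all tested genes higher. HTRA1, a secreted serine protease that cuts IGF binding proteins, had 84, 60 and 72 counts in the VC samples, against 2910, 2463 and 2203 in the VHL-KO samples. Its mean rose 51.2-fold, from 2.12 ± 0.296 to 109 ± 5.41 CPM (SD, n = 3 each), with a log2 fold change of 5.68 (standard error 0.13, edgeR adjusted p = 3.0e-20). STC1 and STC2, secreted inhibitors of PAPP-A, had log2 fold changes of 2.54 and 1.07 (edgeR adjusted p = 1.9e-16 and 1.9e-10). PAPPA2, a metalloproteinase that cuts IGFBP3 and IGFBP5, had 2, 1 and 3 counts in the VC samples, against 26, 8 and 21 in the VHL-KO samples, a ratio of 13.4 (95% counting interval 5.78 to 38.1). PAPPA2 met the read minimum only through the group in which it was high, so its call is no support. PAPPA itself had at most 5 counts and IGFALS at most 7, and neither was tested.

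**Figure D5:**
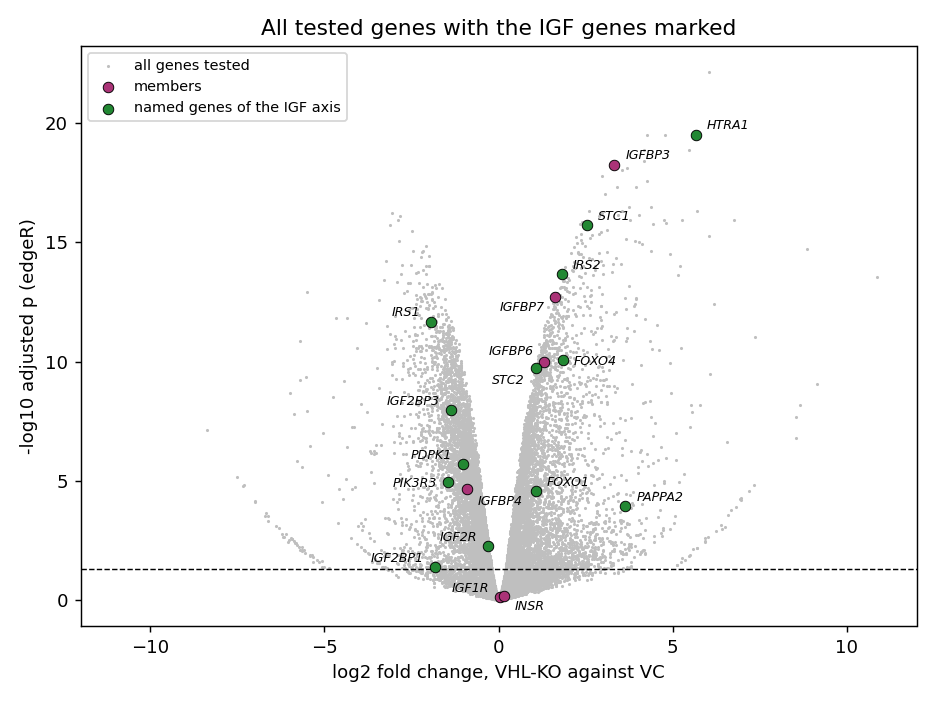
Log2 fold change against -log10 of the edgeR adjusted p for all 17401 tested genes (grey), with the 6 tested members (purple) and the axis genes named by rule (green). The dashed line marks an adjusted p of 0.05. IGFBP3 lies among the genes with the smallest adjusted p, and IGF1R and INSR lie near the origin.

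Around the receptors, IGF2R, the mannose 6-phosphate receptor that removes IGF2 and has no kinase, was lower by a log2 fold change of -0.31 (edgeR adjusted p = 0.00564). This call was lost with upper quartile factors (edgeR adjusted p = 0.0783) and without VHL-KO replicate 1 (0.0514) or replicate 2 (0.0568), in a range from 6.3e-05 to 0.0783 over 14 alternatives. The receptor substrates IRS1 and IRS2 moved in opposite directions. IRS1 reached 51.2, 61.8 and 62.9 CPM in VC and 13.8, 14.1 and 17.6 CPM in VHL-KO samples, a log2 fold change of -1.95 (edgeR adjusted p = 2.1e-12). IRS2 reached 84.0, 88.1 and 89.3 CPM in VC and 329, 294 and 301 CPM in VHL-KO samples, a log2 fold change of 1.82 (edgeR adjusted p = 2.2e-14). Per length, IRS2 exceeded IRS1 in both groups, with 36.5 ± 1.57 and 20.02 ± 2.37 in VC and 96.0 ± 2.36 and 3.86 ± 0.668 in VHL-KO cells. Of the other 5 tested genes in the list of receptor substrates and adaptors, PTPN1 was lower (-0.74). GRB10 passed the test (0.27) with overlapping groups and lost its call in 5 of 14 alternatives: library size alone (0.081), the filter of 1 count in any sample, and without VC replicate 1 or VHL-KO replicate 2 or 3. GRB2, SHC1 and GRB14 were not called, but all 3 were called lower with library size alone (-0.28, -0.34 and -0.46), and SHC1 also with offsets for GC content and length (-0.32). These 5 genes were named after their values were seen.

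Of the IGF2 mRNA-binding proteins, which bind and stabilize transcripts that include IGF2, IGF2BP2 and IGF2BP3 were lower, in a comparison that called 31.2% of all tested genes lower. IGF2BP3 had a log2 fold change of -1.37 (edgeR adjusted p = 1.1e-08) and IGF2BP2, named after its value was seen, one of -0.49. With offsets for GC content and length IGF2BP3 was -0.91 and IGF2BP2 -0.36. IGF2BP1 had 12, 13 and 13 counts in the VC samples, against 1, 3 and 3 in the VHL-KO samples, a ratio of 3.71 in favor of VC (95% counting interval 1.64 to 9.85). It met the read minimum only through VC, the group in which it was high, and was called in 4 of 13 alternatives, not when any VC replicate or VHL-KO replicate 1 was left out. CCN1 and CCN2, matrix proteins once grouped with the IGFBPs, were lower by log2 fold changes of -0.64 and -0.37, also named after their values were seen. The call of CCN2 was lost without VHL-KO replicate 1 (edgeR adjusted p = 0.0653, in a range from 9.5e-05 to 0.0653 over 14 alternatives).

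Downstream, PIK3R3, a regulatory subunit of PI3K, and PDPK1, the kinase that activates AKT, had log2 fold changes of -1.47 and -1.03 (edgeR adjusted p = 1.1e-05 and 2.0e-06). The comparison called 31.2% of all tested genes lower and 28.5% higher. Some genes of the PI3K-AKT list were taken out after the results were seen, so the genes named here do not describe the branch. PIK3CB (-0.85) and AKT1 (-0.66) were lower and called in all 14 alternatives. PIK3R1 (-0.53) was lower and called in 11, and AKT2 (-0.23) was lower and called in 8. Under the offsets for GC content and length PIK3CB was -0.39, PIK3R1 -0.055, AKT1 -0.98 and AKT2 -0.43. PIK3CA, PIK3CD and PIK3R2 were not called, and these 7 genes were named after their values were seen. FOXO1 and FOXO4, transcription factors that AKT keeps out of the nucleus, had log2 fold changes of 1.07 and 1.85 (edgeR adjusted p = 2.8e-05 and 8.7e-11). Other annotated genes overlap 17.5% of the exonic bases of PIK3R3, 23.7% of those of PDPK1, 22.7% of those of FOXO1 and 17.8% of those of IGF2BP3, so these counts are uncertain to that extent. FOXO3 (0.38, named after its value was seen) was also higher but lost its call with library size alone (0.19, edgeR adjusted p = 0.231) and without VC replicate 1 (0.0906) or VHL-KO replicate 3 (0.0667), in a range from 1.9e-04 to 0.231. FOXO6, which was not on the list, was not called.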

How the data were processed

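RNA-seq was run on 3 VC and 3 VHL-KO samples of Caki-1 cells, grouped by the genotype and replicate number in their labels. The authors deposited a table with the read count of every gene in every sample, not normalized. Per the methods and the submitters' processing notes, reads were trimmed with Trim Galore and Cutadapt, STAR mapped those of at least 20 nt to GRCh38.p13, SAMtools kept reads with 1 location, and HTSeq counted them; versions, annotation release, strandedness and counting mode are not given in the sources used here. In replicate order, the depth was 31789923, 28463579 and 34881739 counts for VC, and 29139722, 22805385 and 22628246 for VHL-KO.

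The groups were compared in R 4.3.3 with the two-sided quasi-likelihood F test of edgeR 4.0.16, with TMM factors and p-values adjusted by Benjamini-Hochberg over the 17401 genes that reached 10 reads in some sample. Standard errors are the absolute log2 fold change divided by the square root of F. Gene positions, lengths and overlaps came from GENCODE release 44 and upstream sequences from RefSeq (GRCh38.p14). Shares were tested with scipy 1.17.1, and Python 3.11.15 with matplotlib 3.10.9 made the figures.

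The members and lists were chosen with earlier results of these data known. The text names the 10 members, VHL, CA9, VEGFA, NDRG1, IGF1, IGF2R, IRS1, IRS2, the axis genes past an adjusted p of 0.05 with an absolute log2 fold change of at least 1, and the 3 genes closest in pattern to IGFBP3 and to IGFBP4, the members with the largest rise and fall and a mean of at least 100 counts. Lists covered other ligands and receptors, binding protein proteases and partners, IGFBP-related proteins, IGF2 mRNA-binding proteins, adaptors, PI3K-AKT, FOXO factors, HIF targets and cell type markers. Some genes of the PI3K-AKT list were taken out after the results were seen; they are not reported here and are in no count, so counts over the axis do not describe the branch. Alternatives were upper quartile factors, relative log expression factors, library size alone, filters of 1 count in any sample and 10 reads in every sample, DESeq2 1.42.0, each replicate left out, the replicate number as a block, offsets for GC content and length (natural splines, 5 degrees of freedom), which take out any real change that tracks GC content too, and the longest transcript as gene length.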

Additional observations from a re-analysis of the deposited data

How the results depend on the processing

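The number of members called was 4, with 3 higher and 1 lower, under each of the 14 alternatives. Of 84 log2 fold changes of members under alternatives, 80 kept their direction and side of the threshold and 4, of IGF1R and INSR, changed sign without being called. IGF1R was -0.14 and INSR -0.049 with library size alone, and leaving out 1 replicate gave -0.085 to 0.19 for IGF1R and -0.24 to 0.32 for INSR. The number of axis genes that were lower was 14 of 29 tested, in a comparison that called 31.2% of all tested genes lower. It covers only the genes kept in the lists, includes IGF2BP1, which met the read minimum only through VC, and is not used as a result. It was 17 with library size alone, 11 with upper quartile factors and 9 to 14 when 1 replicate was left out, with 9 without VHL-KO replicate 1. Of 402 values of single axis genes, 356 kept direction and call, 30 lost a call, 5 gained one and 11 changed sign. With library size alone PIK3CD was -0.11 and PIK3R2 -0.023, and with upper quartile factors GRB2 was 0.027. With offsets for GC content and length PIK3CD was -0.093 and PIK3R2 -0.19. PIK3CA, not called at -0.24 with all samples and no offsets, was called higher at 0.31 with these offsets (edgeR adjusted p = 0.0314) and lower at -0.43 without VC replicate 2 (0.0124), in a range from 0.0124 to 0.861 over 14 alternatives. Leaving out 1 replicate gave -0.43 to 0.036 for PIK3CA, -0.072 to 0.18 for PIK3CD and -0.40 to 0.73 for PIK3R2, a gene with at most 10 counts per sample and 76.4% of its exonic bases overlapped on the same strand. The cause was not tested. Genes with under 10 counts per sample, such as PAPPA2 in VC, are limited by depth.

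Samples with the same replicate number did not deviate together (correlations of 0.20, -0.10 and 0.07 over 10907 genes), and not every sample correlated best with its own number, so the numbers were not treated as pairs. With the replicate block 10284 genes were called in place of 10394, with 4 members and 22 axis genes in place of 23.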
